A study of Mus musculus with 8 samples.

Results

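Of 37 genes for splicing regulators measured in the tongue, 34 could be tested, and 1 of these (2.94%), Srsf10, fell in PABPN1A17/+ mice, a share near the 2.61% of all tested genes that fell. None rose, against 6.34% of all tested genes, and the call of Srsf10 was lost in 6 of 21 alternative analyses. More than 1 member passed in 11 of the 21. With wild-type library 1 left out, 10 of 34 passed (8 lower and 2 higher), the most in any of the 21. In that fit 7.01% of all tested genes were lower and 9.28% higher. Without wild-type library 2, 3 or 4, the number that passed was 1, 0 and 0. The 37 genes were taken from a list of names, by protein family, chosen with earlier results of these data known. They comprise 14 SR proteins and relatives, 15 heterogeneous nuclear ribonucleoproteins (hnRNPs), and 8 regulators of the Mbnl, Celf, Rbfox and Rbm families. All 37 were found among the 19857 genes of the deposited count table, and 3 of them had too few counts to be tested. RNA came from bulk tongue of female mice aged 12 months, with 4 wild-type (WT) animals and 4 PABPN1A17/+ (A17/+) animals, and 1 library per animal. A17/+ animals carry 1 copy of the A17 allele of Pabpn1, and the labels name no other allele and no treatment in either group. Pabpn1 encodes the nuclear poly(A)-binding protein, and alanine-expanded forms of it cause oculopharyngeal muscular dystrophy in people. Libraries were made by mcSCRB-seq, which counts molecules at their 3′ end with unique molecular identifiers.

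SR proteins carry an RNA-recognition domain and a stretch rich in arginine and serine, and many of them promote the use of exons to which they bind. hnRNPs are abundant nuclear proteins that coat nascent transcripts and often repress nearby splice sites, and many also act in RNA export, stability or translation. Mbnl, Celf, Rbfox and Rbm proteins regulate splicing in striated muscle, and loss of free Mbnl protein is a central step in myotonic dystrophy. Many SR and hnRNP genes limit their own output through alternative exons that lead to decay of the transcript. Counting at the 3′ end gives 1 total per gene, so neither such exons nor the splicing of any target was measured here. In bulk tissue, fewer cells of a type and less RNA per cell cannot be told apart.

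Because both the allele and the assay concern the poly(A) tail, the annotated ends of 6 members are shown here as examples. Each is a stretch of at most 30 bases from the last 50 bases of the gene's longest annotated coding transcript (mm10), written 5′ to 3′ on the transcript's strand, with the poly(A) signal in capitals. The stretches lie at chr4:135869868-135869897 (plus strand, Srsf10), chr16:22244554-22244583 (minus, Tra2b), chr5:99955937-99955966 (minus, Hnrnpd), chr11:51600100-51600128 (minus, Hnrnpab), chr3:60629717-60629746 (plus, Mbnl1) and chr13:46431067-46431095 (plus, Rbm24).
Srsf10: gagagtaaAATAAActggtctaggagcttt
Tra2b: atgcaatgAATAAAatactacagttttaag
Hnrnpd: tcttaacaATTAAActttccagcactcatg
Hnrnpab: ttttcttaAATAAAttgagggagaccttg
Mbnl1: attgccctAATAAAacttctctttcttaag
Rbm24: tcacttgtATTAAAtataatttttaaaaa
The search was for AATAAA and, where that was not found, for ATTAAA, on the transcript's own strand. AATAAA was in the window of 24 of the 37 members (64.9%), against 66.3% of the 4992 tested genes with an annotated coding transcript. ATTAAA alone was in 8 members (21.6%), against 15% of those genes. The other 5 members (Hnrnpk, Rbfox1, Rbm20, Srsf7 and Srsf9) had neither set of letters in this window. Genes with lower and with higher means in A17/+ are found with either signal. The 6 members shown were chosen after their values were seen. Rbm24 stands in place of Celf2, which has a smaller p and AATAAA. The longest annotated transcript need not be the one whose end was counted.

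Library totals were 465014 molecules in WT 1, 205696 to 314493 in the other WT libraries and 395061 to 485326 in A17/+. Mitochondrial transcripts made up 4.17 to 6.43% of counts in WT and 7.24 to 11.0% in A17/+. Levels are given as CPM, the usual depth-scaled count, with TMM scaling of the libraries. Skeletal muscle markers summed to 85985 to 115995 CPM in WT and 110455 to 131977 CPM in A17/+, and 4 of the 10 tested rose. Epithelial markers summed to 16280 to 18736 CPM in WT and 11735 to 22354 CPM in A17/+, and 3 of the 12 tested fell. Adipocyte markers (3 of 3 tested rose) summed to 190 to 372 CPM in WT and 670 to 707 CPM in A17/+. Fibroblast markers (3 of 8 tested rose) summed to 981 to 1284 CPM in WT and 1251 to 2357 CPM in A17/+. Blood markers (1 of 1 tested rose) summed to 20.1 to 32.3 CPM in WT and 100.3 to 1333 CPM in A17/+, and Schwann cell and nerve markers (1 of 3 tested rose) to 64.3 to 130.0 and 205 to 254 CPM. Endothelial markers (none of 8 tested passed) summed to 572 to 612 CPM in WT and 651 to 678 CPM in A17/+. Library WT 1 stood apart from the other WT libraries, with 2066 CPM of salivary gland markers against 0 to 10.2 CPM. What part these differences have in the results below was not tested.

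Of the 34 tested members, 1 fell and 0 rose in edgeR's quasi-likelihood test at a Benjamini-Hochberg adjusted p under 0.05. Over all 5066 genes tested, 2.61% fell, 6.34% rose, and 8.94% passed in either direction. At an unadjusted p under 0.05, 8 of the 34 members were lower, a larger share than the 545 of all 5066 tested genes (10.8%). Of those 8, 6 were among the 14 tested hnRNPs. By the same measure 6 of the 34 were higher, against 728 of the 5066 (14.4%). The members were chosen with earlier results of these data known, so neither share was tested or counts as evidence of a change. The members' median log2 fold change was 0.03, beside 0.01 over all tested genes. The 95% interval of 23 of the 34 members lay within a 2-fold change in either direction. The plot of fold changes shows the members of the 3 classes around this median. The median log2 fold change was -0.25 for the SR proteins, -0.09 for the hnRNPs and 0.35 for the Mbnl, Celf, Rbfox and Rbm regulators. Between libraries of the same group, the median log2 level of these classes had an SD of 0.21, 0.15 and 0.19. No class was tested as a whole.

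**Figure D1:**
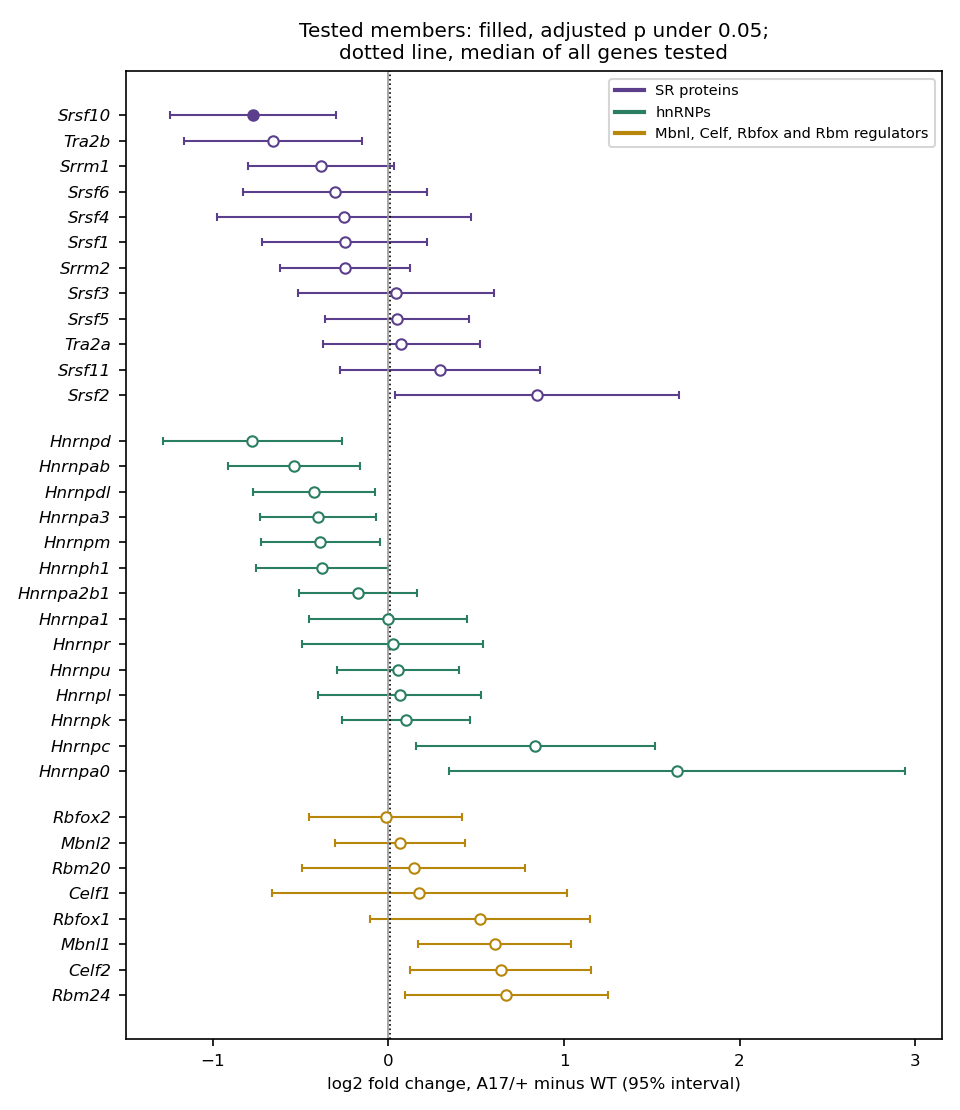
Log2 fold change (A17/+ minus WT, horizontal axis) with its 95% interval for each of the 34 tested members, grouped by class. Srsf10 (-0.77) is the single filled point, and the Mbnl, Celf, Rbfox and Rbm regulators run from -0.02 to 0.67.

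Srsf10 (ENSMUSG00000028676, chr4:135855747-135869908, plus strand), an SR protein that turns into a splicing repressor when it is dephosphorylated, fell. WT libraries held 301, 420, 690 and 553 CPM in the order 1 to 4, and A17/+ libraries held 323, 316, 274 and 228 CPM. WT 1 lay among the A17/+ libraries, so the groups overlapped, while the other 3 WT libraries lay above all 4 A17/+ libraries. The mean was 491 ± 168 CPM (SD, n = 4) in WT and 285 ± 44.0 CPM (SD, n = 4) in A17/+. The log2 fold change was -0.77 (SE 0.22, 95% interval -1.24 to -0.30), with an edgeR adjusted p of 0.0415. The call was lost on leaving out WT 3 (-0.57, adjusted p = 0.156), WT 4 (-0.76, adjusted p = 0.0847), A17/+ 3 (-0.75, adjusted p = 0.120) or A17/+ 4 (-0.70, adjusted p = 0.121). It was also lost in limma-voom (adjusted p = 0.100) and with the replicate number as a block (-0.72, adjusted p = 0.0854).

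The SR-related activator Tra2b (chr16:22244549-22266005, minus strand), which binds purine-rich exonic enhancers, had the next smallest p of its class. It stood at 107, 171, 190 and 200 CPM in WT and at 86.9, 130, 107 and 94.1 CPM in A17/+. As with Srsf10, WT 1 lay among the A17/+ libraries and the other 3 WT libraries above them all. Means were 167 ± 41.8 and 105 ± 18.9 CPM (SD, n = 4 each), a log2 fold change of -0.66 (95% interval -1.16 to -0.15) that did not pass (edgeR adjusted p = 0.0962). Srsf2, a core SR protein of nuclear speckles, had few counts, with 24.5, 22.6, 27.1 and 5.42 CPM in WT and 24.5, 48.0, 36.7 and 48.5 CPM in A17/+. The lowest A17/+ library lay within the WT values, and the log2 fold change of 0.85 (95% interval 0.04 to 1.66) did not pass (edgeR adjusted p = 0.176). Exons of Srsf2 overlap those of Mfsd11 and Mettl23 on the opposite strand, and since the labels do not say whether counting used strand, its count is uncertain.

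Srrm1 and Srrm2 encode large arginine- and serine-rich proteins of the spliceosome, and SRRM2 is a scaffold of nuclear speckles. Srrm1 gave 218, 255, 335 and 276 CPM in WT and 234, 237, 164 and 191 CPM in A17/+. Srrm2 gave 631, 856, 948 and 1127 CPM in WT and 778, 839, 701 and 664 CPM in A17/+. WT 1 lay among the A17/+ values for Srrm1 and below all of them for Srrm2, and in both genes the other 3 WT libraries lay above every A17/+ library. Their log2 fold changes were -0.38 (edgeR adjusted p = 0.236) and -0.25 (edgeR adjusted p = 0.406). Of the remaining 7 tested SR genes, Srsf1, Srsf4 and Srsf6 had log2 fold changes of -0.25, -0.25 and -0.30. Those of Srsf3, Srsf5 and Tra2a were 0.04, 0.05 and 0.07, and that of Srsf11 was 0.30. Srsf5 was the narrowest of these, with a 95% interval of -0.36 to 0.46, while that of Srsf4 ran from -0.97 to 0.47.

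Srsf7 and Srsf9 had too few counts to be tested among the 5066 genes. Srsf7, an SR protein that also serves as an adaptor for mRNA export, gave counts of 2, 2, 3 and 0 in WT and 6, 10, 9 and 9 in A17/+. Every A17/+ library lay above every WT library, on 7 counts in WT and 34 in A17/+. The count of 0 in WT 4 allows up to 16.3 CPM (3 counts, counting error only), a value above the 13.4 CPM of A17/+ 1. Fitted with no filter on low counts, the log2 fold change of Srsf7 was 1.89 (95% interval 0.67 to 3.10, edgeR adjusted p = 0.0539). Intervals and p values of the fit with no filter, here and below, make no allowance for the small number of libraries. In limma-trend on the deposited log2 values, its log2 fold change was 1.38 and passed (limma adjusted p = 0.0296). In that fit 5.02% of all genes with such values were higher. Srsf9 summed to 19 counts in WT and 25 in A17/+.

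**Figure D2:**
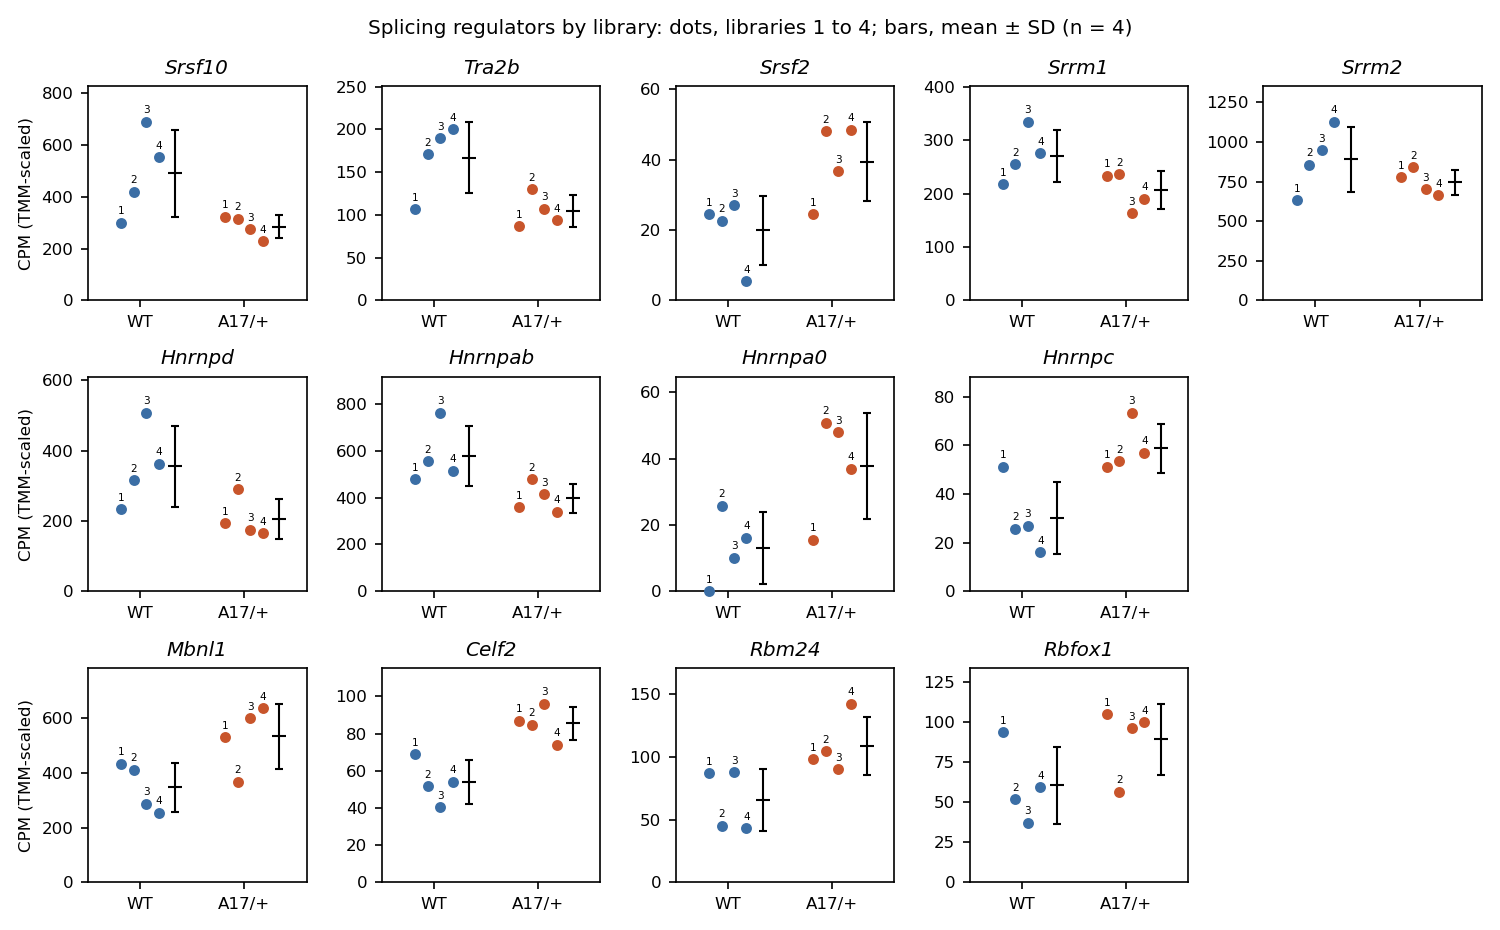
CPM after TMM scaling (vertical axes, each from 0) for 13 members in WT (blue) and A17/+ (orange); dots are libraries, numbered, and bars are mean ± SD (n = 4). In Srsf10, Tra2b, Srrm1 and Srrm2 the WT 1 dot is the lowest of WT and lies among the A17/+ dots or, for Srrm2, below them.

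No hnRNP passed the test. The nearest was Hnrnpd (chr5:99955935-99978938, minus strand), also called AUF1, which binds AU-rich elements and affects mRNA stability. WT libraries held 234, 317, 508 and 363 CPM, and A17/+ libraries held 194, 291, 175 and 165 CPM. A17/+ 2 lay above WT 1, and all other A17/+ libraries lay below every WT library. Means were 355 ± 115 and 206 ± 57.6 CPM (SD, n = 4 each). The log2 fold change was -0.78 (SE 0.24, 95% interval -1.29 to -0.27), with an edgeR adjusted p of 0.0540.

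Hnrnpab (chr11:51600100-51606847, minus strand), a single-strand DNA- and RNA-binding protein related to Hnrnpd, gave 477, 556, 761 and 515 CPM in WT and 359, 477, 415 and 339 CPM in A17/+. WT 1 and A17/+ 2 were level, and otherwise every A17/+ library lay below every WT library. The log2 fold change was -0.54 (95% interval -0.92 to -0.16, edgeR adjusted p = 0.0689). A further 4 hnRNP genes had negative values with a 95% interval below 0, and none passed adjustment. They were Hnrnpdl, the other close relative of Hnrnpd (-0.42), Hnrnpa3 (-0.40), Hnrnpm (-0.39) and Hnrnph1, which binds runs of G (-0.38). Hnrnpm is named after its values were seen: at 383 to 504 CPM in WT and 308 to 377 CPM in A17/+, it was the 1 tested member whose A17/+ libraries all lay below the WT libraries. Over all tested genes, 6.08% were apart in that direction.

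Hnrnpc and Hnrnpa0 had the highest log2 fold changes of the class. Hnrnpc, which binds uridine tracts of pre-mRNA, gave 51.3, 25.9, 27.1 and 16.3 CPM in WT and 51.3, 53.7, 73.5 and 57.0 CPM in A17/+. WT 1 was level with the lowest A17/+ library, and the other 3 WT libraries lay well below. Its log2 fold change was 0.84 (95% interval 0.16 to 1.52, edgeR adjusted p = 0.113). Hnrnpa0, a relative of the A and B proteins that is made from a single exon, gave 0, 25.9, 10.2 and 16.3 CPM in WT and 15.6, 50.8, 48.0 and 37.1 CPM in A17/+. The 0 in WT 1 allows up to 6.69 CPM, and A17/+ 1 overlapped WT. Its log2 fold change of 1.64 had a wide 95% interval (0.35 to 2.94) and did not pass (edgeR adjusted p = 0.104). It was 1.02 without WT 1 and 2.35 without WT 2.

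The other 6 tested hnRNPs, among them Hnrnpa1 and Hnrnpa2b1 of the A and B proteins that package pre-mRNA, showed smaller differences. Hnrnpa2b1, Hnrnpa1, Hnrnpk, Hnrnpl, Hnrnpr and Hnrnpu had log2 fold changes between -0.17 and 0.10, and all 6 of their 95% intervals lay within a 2-fold change. Hnrnpu, a chromatin-bound scaffold protein, gave 276 to 368 CPM in WT and 305 to 373 CPM in A17/+. For Hnrnpk, a poly(C)-binding protein, WT 1 (265 CPM) lay below the 7 other libraries (387 to 430 CPM). Hnrnpf, a G-run-binding relative of Hnrnph1, was under the filter with 30 counts in WT and 14 in A17/+. With no filter its log2 fold change was -1.34 (95% interval -2.41 to -0.28, edgeR adjusted p = 0.175). In that fit of all 19857 genes, in which 3.1% rose and 1.2% fell, 4 of the 37 members passed the threshold. Only 5066 of those genes, but 34 of the 37 members, had enough counts for the filter, so these shares are not alike. Among the 5066 genes in the filtered fit, 8.94% passed in either direction. Srsf10, Hnrnpd and Hnrnpab were lower (edgeR adjusted p = 0.00153, 0.00297 and 0.0358) and Hnrnpa0 was higher (edgeR adjusted p = 0.0261). The p values and intervals of that fit make no allowance for the small number of libraries. With the filter, the edgeR adjusted p of these 4 genes was 0.0415, 0.0540, 0.0689 and 0.104.

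All 8 regulators of the third class were tested, none passed, and 7 of the 8 had a log2 fold change above 0. Mbnl1 (chr3:60472830-60629750, plus strand), the muscleblind protein that is sequestered by CUG repeats in myotonic dystrophy, gave 432, 410, 288 and 255 CPM in WT and 528, 367, 599 and 636 CPM in A17/+. A17/+ 2 lay among the WT libraries and the other 3 lay above them. The means were 346 ± 88.2 and 533 ± 119 CPM (SD, n = 4 each), a log2 fold change of 0.60 (SE 0.21, 95% interval 0.17 to 1.04, edgeR adjusted p = 0.0742). Its paralog Mbnl2 stood at 269 ± 43.0 and 280 ± 26.6 CPM (SD, n = 4 each), with a log2 fold change of 0.07 and a 95% interval of -0.30 to 0.44. The difference between the paralogs was not tested.

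Celf2, of a family that acts against Mbnl proteins on several muscle exons, gave 69.1, 51.7, 40.6 and 54.2 CPM in WT and 86.9, 84.7, 96.1 and 74.1 CPM in A17/+. All 4 A17/+ libraries lay above all 4 WT libraries. The log2 fold change was 0.64 (95% interval 0.12 to 1.16, edgeR adjusted p = 0.110). Its relative Celf1 had fewer counts, at 37.0 ± 20.3 and 42.1 ± 13.4 CPM (SD, n = 4 each), and its 95% interval ran from -0.66 to 1.02. Rbm24, a splicing regulator of heart and skeletal muscle (chr13:46418434-46431095, plus strand), gave 86.9, 45.2, 88.0 and 43.3 CPM in WT and 98.1, 104, 90.4 and 143 CPM in A17/+. The groups did not overlap, although the lowest A17/+ library exceeded the highest WT library by a small margin. The log2 fold change was 0.67 (95% interval 0.10 to 1.25, edgeR adjusted p = 0.132). Together with Hnrnpc, whose margin was below the printed digits, these were the 3 tested members with every A17/+ library above WT. Over all tested genes 8.57% were apart in this direction.

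Rbfox1, a neuronal and muscle regulator, gave 93.6, 51.7, 37.2 and 59.6 CPM in WT and 105, 56.5, 96.1 and 99.8 CPM in A17/+. WT 1 and A17/+ 2 lay on the side of the other group, and the log2 fold change of 0.52 (95% interval -0.10 to 1.15) did not pass (edgeR adjusted p = 0.290). Rbfox2, its more widely expressed paralog, had a log2 fold change of -0.02 (95% interval -0.45 to 0.42). Rbm20, the regulator of titin splicing, had one of 0.14 (95% interval -0.49 to 0.78). Of this class, the intervals of 3 genes lay within a 2-fold change. Markers of skeletal muscle, in which several of these 8 genes are active, also had a higher range in A17/+, which overlapped that of WT. Sums of Schwann cell and nerve, adipocyte, endothelial and blood markers were higher in A17/+ with no overlap. The part of all these markers in the values of this class was not tested.

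**Figure D3:**
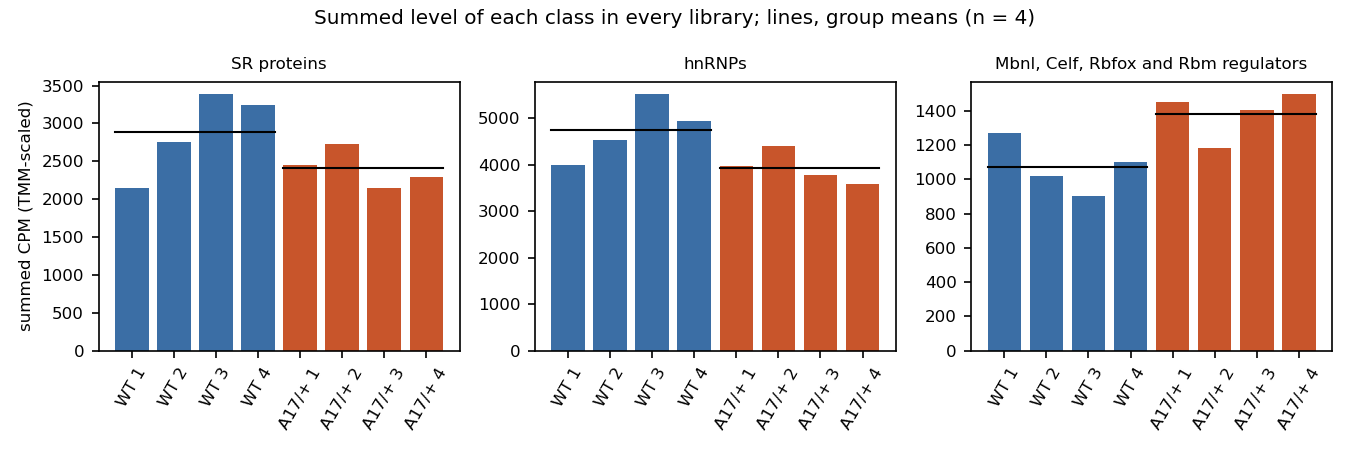
Summed CPM of each class (vertical axes, each from 0) in the 8 libraries, with a line at each group's mean (n = 4). WT 1 has the lowest SR and hnRNP sums of WT and the highest muscle regulator sum of WT.

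Summed over a class, WT 1 was at the edge of the WT values in all 3 classes. The SR genes summed to 2144, 2760, 3384 and 3245 CPM in WT and to 2457, 2734, 2147 and 2297 CPM in A17/+. The hnRNP genes summed to 4003, 4538, 5520 and 4941 CPM in WT and to 3968, 4406, 3783 and 3597 CPM in A17/+. WT 1 lay within the A17/+ range for the hnRNP genes and just below it for the SR genes, and in both classes the other 3 WT libraries lay above it. The Mbnl, Celf, Rbfox and Rbm genes summed to 1268, 1018, 900.2 and 1100 CPM in WT and to 1449, 1181, 1404 and 1496 CPM in A17/+. Here WT 1 was the highest of WT and A17/+ 2 the lowest of A17/+, and the groups overlapped at those libraries. These sums are led by the most counted genes and carry no test.

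The calls among the members depended most on WT 1. With WT 1 left out, 10 of the 34 tested members passed the edgeR test, against 1 with all libraries. Those that were lower were the 2 SR genes Srsf10 (log2 fold change -0.99) and Tra2b (-0.87) and the 6 hnRNP genes Hnrnpd (-0.98), Hnrnpab (-0.66), Hnrnpa3 (-0.55), Hnrnpdl (-0.54), Hnrnph1 (-0.53) and Hnrnpm (-0.50). Those that were higher were Hnrnpc (1.25) and Mbnl1 (0.70). In that fit 7.01% of all 5461 tested genes were lower and 9.28% were higher. Besides its salivary gland markers, WT 1 differed from the other WT libraries in macrophage markers and in the share of counts on genes with transcripts under 1000 bases. That share was 6.42% in WT 1, 4.32 to 4.50% in the other WT libraries and 6.23 to 8.90% in A17/+. Macrophage markers summed to 421 CPM in WT 1, to 156 to 200.5 CPM in the other WT libraries and to 393 to 476 CPM in A17/+. The part of these measures in the members' values was not tested. WT 1 also held more molecules (465014) than the other WT libraries (205696 to 314493), and A17/+ libraries held 395061 to 485326. With counts thinned to the smallest library, 3 of the 31 members tested passed, as did 345 of all 3079 genes tested. The plot of calls by setting shows 0 to 10 members called over all the settings tried.

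**Figure D4:**
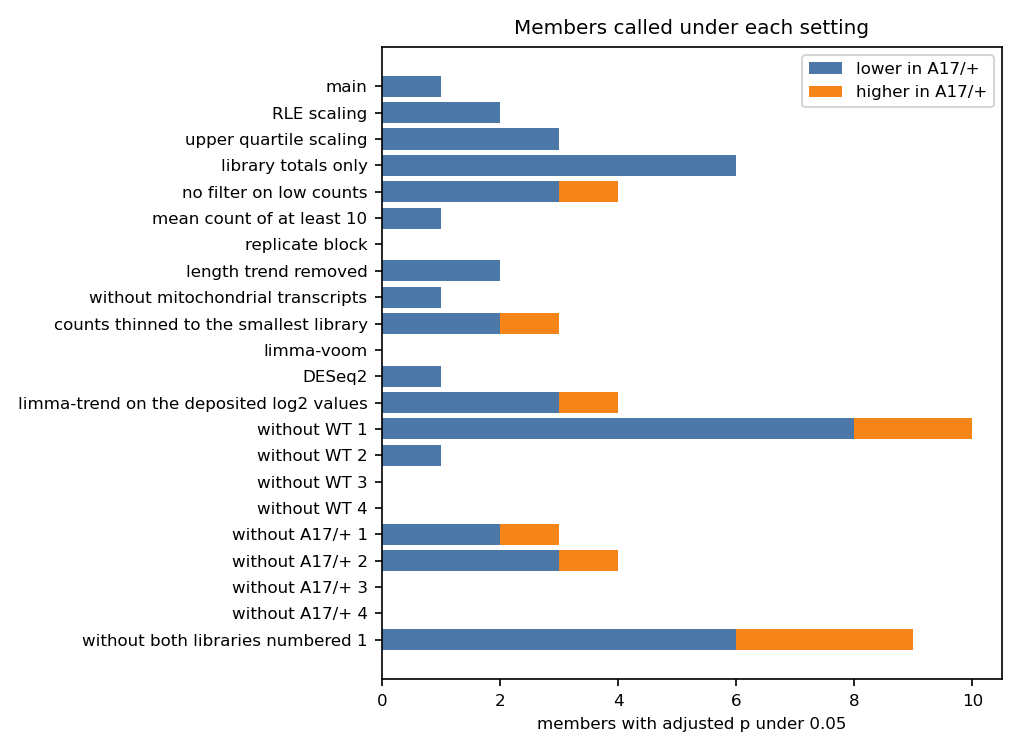
Number of members with an adjusted p under 0.05 (horizontal axis) with all libraries ("main") and under 21 alternatives, split by direction. The count runs from 0 to 10, and the 2 longest bars are the settings without WT 1.

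Fold changes over all genes ran with transcript length, and the members fall mostly in the middle of that range. The median log2 fold change was 1.28 for the 170 tested genes under 1000 bases, a bin that holds none of the members. It was 0.26 for genes of 1000 to 2000 bases (5 members, median 0.05) and 0.02 for genes of 2000 to 4000 bases (17 members, median -0.25). It was -0.05 for genes of 4000 to 8000 bases (9 members, median 0.05). For the 557 genes of 8000 bases or more it was -0.11 (3 members, median 0.02). The Mbnl, Celf, Rbfox and Rbm genes had a median length of 5274 bases and the hnRNP genes one of 2800 bases. With the trend on length removed, 2 members passed in place of 1.

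Other genes of the splicing machinery, in 5 lists of 133 names, were set beside the members. Of 82 tested, 0 rose (against 6.34% of all tested genes) and 2 fell (2.44%, against 2.61%), at a median log2 fold change of -0.06. The groups did not overlap in 7 of the 82 with A17/+ lower and in 4 with A17/+ higher. Over all tested genes these shares were 6.08% and 8.57%. None of the 13 tested U1 and U2 snRNP genes, of the 4 tested Sm and LSm genes or of the 9 tested kinases, phosphatases and importers of SR proteins passed. The 2 that fell were Taf15 and Slu7. Taf15, an RNA-binding protein, gave 357, 456, 508 and 569 CPM in WT and 319, 328, 251 and 197 CPM in A17/+, with no overlap between the groups. Its log2 fold change was -0.77 (SE 0.20, edgeR adjusted p = 0.0201). Slu7, which acts in the second catalytic step of splicing, gave 305, 404, 518 and 634 CPM in WT and 218, 373, 232 and 208 CPM in A17/+. A17/+ 2 lay above WT 1, and the log2 fold change was -0.84 (SE 0.24, edgeR adjusted p = 0.0367).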

How the data were processed

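Total RNA from tongue cryosections of 8 mice was made into mcSCRB-seq libraries. Per the submitters' processing notes, cutadapt 2.10, STAR 2.7.5a, UMI-tools 1.1.1, HTSeq and mm10 were used; strand setting and annotation release are not given in the sources used here. The deposited table holds raw counts per gene, and the deposited log2 values (normalized by the authors, 10709 genes) were used in 1 alternative. Symbols and positions came from GENCODE M21. The members and gene lists were chosen with earlier results of these data known. Genes were filtered with filterByExpr (minimum count 10, minimum total count 15), scaled by TMM and tested with edgeR 4.0.16 (glmQLFit, glmQLFTest), genotype as the only term, with Benjamini-Hochberg adjustment. Values per library are given for members past the threshold and up to 4 more per class with the smallest p. Scripts were tested on simulated data. Exons of 15 members overlap another annotated gene, and reads shared with processed copies were not separated. Alternatives changed scaling, filter, tool, length trend, depth and libraries.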

Additional observations from a re-analysis of the deposited data

Results flagged for a closer look

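Of the measures of the libraries, 4 stood out, 3 of them in WT 1 and 1 in WT 2. Genes with transcripts under 1000 bases took 6.42% of the counts of WT 1, and the next WT library had 4.50%, a gap of 0.915 of the WT range. Salivary gland markers summed to 2066 CPM in WT 1 and to 10.2 CPM in the next WT library, a gap of 0.995 of the range. Macrophage markers summed to 421 CPM in WT 1 and to 200.5 CPM in the next WT library, a gap of 0.831 of the range. Blood markers summed to 32.3 CPM in WT 2 and to 21.7 CPM in the next WT library, a gap of 0.868 of the range. Each gap exceeded the 95% critical value of Dixon's test, which chance alone passes in about 5% of groups, and 60 groups were examined. No level of a member named with values in every library, and no class sum, stood apart in this way.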

How the results depend on the processing

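Of the 13 members plotted by library, none reversed its direction in any alternative that tested it. Alternatives numbered 21, but 19 for Srsf2 and 18 for Hnrnpa0. These 13 were picked for a small p with all libraries, which favours a kept sign. Some members outside the 13 did reverse. Without WT 1, the log2 fold change of Hnrnpk went from 0.10 to -0.08 and that of Tra2a from 0.07 to -0.06. Those of Srsf5 and Hnrnpl went from 0.05 and 0.06 to -0.07 in both. The 3 class medians kept their sign in all 21. However, the number of members past the threshold (1) moved. It was 2 with RLE scaling or with the length trend removed, 3 with upper quartile scaling or with counts thinned to the smallest library, 4 without a filter on low counts or in limma-trend on the deposited log2 values, 6 with scaling by library totals, 0 in limma-voom, 9 without both libraries numbered 1, and 0 to 10 on leaving out single libraries. Srsf10 passed in 15 of the 21, with log2 fold changes of -1.02 to -0.57 and adjusted p of 0.00153 to 0.156. The lowest of these p values is from the fit with no filter, which makes no allowance for the small number of libraries. Hnrnpd passed in 10 and Hnrnpab in 8. The number called moved over all genes too. All genes past the threshold (453 of 5066 tested) numbered 853 without a filter, 228 in limma-voom and 797 in limma-trend. They numbered 345 of 3079 with thinned counts and 1025 of 4907 (695 higher, 330 lower) without both libraries numbered 1. Leaving out single libraries gave 210 to 890. With library totals the split was 279 higher and 289 lower of 5066, against 321 and 132, and the median of all genes was -0.11. With upper quartile scaling the split was 331 higher and 186 lower of 5066. The members' counts were not tested against those of all genes, so their rises are not read as particular to the members. The hnRNP median (-0.09) was -0.28 with the length trend removed, -0.27 in limma-trend, -0.22 without a filter, -0.17 without WT 1 and -0.21 without A17/+ 1, with a range of -0.21 to -0.05 on leaving out single libraries. The SR median (-0.25) ran from -0.31 to -0.13 on leaving out single libraries, with -0.13 without WT 3. The median of the Mbnl, Celf, Rbfox and Rbm genes (0.35) was 0.58 with thinned counts, 0.70 without both libraries numbered 1 and 0.17 to 0.57 on leaving out single libraries. The cause of these shifts was not tested. With a replicate block, 0 members passed (Srsf10 -0.72, adjusted p = 0.0854) and 410 genes did; same-numbered libraries did not deviate together (r = 0.00406, 0.0719, -0.104 and -0.159), so the numbers are not taken as pairs. Depth limits the genes with few counts: Srsf7, Srsf9 and Hnrnpf could not be tested with the filter, and the interval of Hnrnpa0 spans 0.35 to 2.94.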
